A study of Oryza sativa Japonica Group with 18 samples.

Results

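Roots of 2 rice mutants, one lacking PHO2 and one lacking GIGANTEA (GI), were compared directly with each other. The 6 arrays of the comparison, 3 of pho2 knockout roots and 3 of gi knockout roots, were chosen by the genotype and tissue in the sample titles, out of 18 arrays in the series. The other arrays were of wild type (WT) roots and of shoots of the same 3 genotypes, with 3 arrays in each group. All groups were in the Japonica background Nipponbare, and the WT was Nipponbare itself. Plants of every group were 21 days old, after 2 days of germination in water and 19 days in a hydroponic medium with sufficient phosphate (Pi), under a 12 h photoperiod at 30 °C by day and 22 °C by night. The WT root arrays did not enter the difference between the mutants. They entered the shared estimate of spread and are given beside it as a further level. The knockout alleles, the number of independent lines, the hour of harvest and the origin of the replicates (separate plants or cultures) were not stated in the labels. The p-values therefore measure the spread between these arrays, which may be technical.

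PHO2 is a ubiquitin-conjugating enzyme that limits Pi uptake by the root and its loading towards the shoot, and plants that lack it take up more Pi when Pi is ample. GI is a large plant-specific protein of the circadian clock that acts on photoperiodic flowering. In rice, PHT1 proteins bring Pi into root cells, and proteins with an SPX domain sense inositol polyphosphates as a signal of Pi status and hold back the PHR transcription factors that turn on Pi starvation genes. The clock rests on morning genes such as LHY and on pseudo-response regulators (PRR genes) that repress each other over the day. The series is about both genes in flowering time and Pi homeostasis, and the comparison asks where the root transcripts of the mutants part.

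Levels are given as MAS5 signal, the deposited intensity on a linear scale, as mean ± SD with n = 3. Differences are pho2 less gi on the log2(signal + 16) scale with their standard error (SE), so that a positive value is a higher level in pho2. The pseudocount of 16 understates differences of dim probe sets. Adjusted p is the limma value, adjusted by Benjamini and Hochberg over 34355 tested probe sets, and 0.05 was the limit under which a probe set counts as called. In these whole roots, fewer cells of a type and less RNA per cell cannot be told apart.

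Between the mutants, 2609 of 34355 probe sets were called (7.59% of those tested). In pho2, 1352 were higher (3.94%) and 1257 were lower (3.66%), so that 51.8% of the calls were higher in pho2. With each array centred on its median this share was 65.6%, of 1415 calls. The difference was at least 2-fold in 441 called probe sets and at least 4-fold in 66. The 3 pho2 arrays did not overlap the 3 gi arrays in 2608 of the called probe sets, and in 28.7% of all tested ones. Among fits that left out 1 array, the number of calls fell most without array 1 of pho2 (1079), array 1 of gi (1180), array 2 of gi (1384) or array 2 of pho2 (1485). Array medians of the root arrays lay between 52.8 and 66.3 signal, replicates correlated at 0.9824 to 0.9856, and pho2 and gi arrays at 0.9778 to 0.9816. The log2 ratio of 3' to 5' signal can be a sign of RNA and labelling quality. It did not overlap between the mutants for 10 of 38 control probe set pairs, and was higher in pho2 for 9 of these. The 28.7% of all tested probe sets without overlap is a share of signals, which include differences between the genotypes. It therefore gives no expected count for the ratios of controls. Some controls have more than 1 pair, and TrpnX, among the 9, was at background (3' signal of 11.3 in pho2 and 1.94 in gi). For 1 rice actin pair the ratio lay between 3.02 and 3.52 in pho2 and between 2.9 and 3.01 in gi. The other rice actin pair overlapped (2.93 to 3.29 and 2.8 to 2.94). For the spiked controls DapX and r2-Bs-thr the ratio lay between 1.94 and 2.06 and between 2.08 and 2.3 in pho2, against 1.78 to 1.89 and 1.78 to 1.94 in gi. The part of these ratios in the differences below was not tested. Root markers were called in 0 of 8 tested genes, with 3 at an unadjusted p under 0.05. With the filter at the 60th percentile, with array weights or without array 1 of pho2, 1 root marker was called lower. Of 10 tested shoot markers, and of 19 photosynthesis genes, 1 was called, PSAG, a subunit of photosystem I, with 447 ± 43.9 in pho2 and 232 ± 18.6 in gi (difference 0.90, SE 0.135, adjusted p = 0.00501). A second, dim PSAG probe set was not called (0.08, adjusted p = 0.885). The summed signal of the shoot markers was 11305, 16958 and 20648 on the pho2 arrays and 16448, 24608 and 18595 on the gi arrays.

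Counts in gene lists use the brightest probe set of each named gene. Of 2263 such genes 11.4% were called, 6.14% higher and 5.26% lower in pho2, with a median difference of -0.0301, and these are the shares to set beside the counts in lists.

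The level on the WT arrays was set beside both mutants. The WT mean was nearer to the gi mean than to the pho2 mean in 2104 of the 2609 called probe sets (80.6%), against 60.8% of all tested probe sets. The share was 82.6% for probe sets higher in pho2 and 78.5% for those lower in pho2. Among called differences of at least 2-fold it was 69.6%. Tested against the same WT arrays, 15.9% of probe sets were called for pho2 and 2.31% for gi. These comparisons share arrays with each other and with the direct one, so their values are set side by side only.

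The clearest separation was the GI probe set itself. It read 8200, 8030 and 7920 on the pho2 arrays, 1.36, 1.71 and 2.19 on the gi arrays and 7236, 7007 and 7393 on the WT arrays. Every array labelled gi knockout was therefore low for the targeted gene, and every other root array was high. The fitted difference was 8.83 (SE 0.0661, adjusted p = 2.78e-13), a size that depends on the pseudocount because the gi values lie under it. It was 11.52 with a pseudocount of 1 and 6.95 with 64. PHO2 carries no name in the tables used here, so its level was not used as a check of the pho2 labels.

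Of 6 tested clock genes, 3 were higher and 2 lower in pho2 than in gi (83.3% called, against 11.4% of named genes). GI is 1 of the 3, and its difference was fixed by the knockout, as was its WT mean being nearer to pho2. Of the other clock genes, the WT mean was nearer to pho2 for LHY, PRR1 and PRR95. LHY, a MYB transcription factor of the morning loop, read 3838, 4106 and 4019 in pho2, 523, 521 and 461 in gi, and 3377, 3439 and 3080 in WT. The groups of the mutants did not overlap, and pho2 was 7.96-fold higher (difference 2.95, SE 0.0744, adjusted p = 2.03e-08). PRR1, the rice counterpart of the evening regulator TOC1 of Arabidopsis, went the other way, with 588, 489 and 505 in pho2 and 1169, 1174 and 1289 in gi. Its WT arrays read 503, 499 and 481, in or next to the pho2 range (difference -1.18, SE 0.0909, adjusted p = 0.00012). PRR95, a pseudo-response regulator of the daytime, read 2215, 2139 and 2235 in pho2, 3192, 3956 and 4063 in gi and 1501, 1352 and 1577 in WT. All gi arrays were above all pho2 arrays, which were in turn above all WT arrays (difference -0.75, SE 0.0962, adjusted p = 0.00232).

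PRR73 differed by a small amount, with 8182 ± 240 in pho2, 6876 ± 329 in gi and 7382 ± 185 in WT (difference 0.25, SE 0.0532, adjusted p = 0.0217). That call ended without array 1 of gi (adjusted p = 0.0764), array 2 of gi (0.057), array 1 of pho2 (0.0814) or array 2 of pho2 (0.0568). PRR37, a regulator of heading date, had 1426 ± 69.4 in pho2 and 1419 ± 179 in gi and was not called (difference 0.01, SE 0.0965, adjusted p = 0.954). Dimmer probe sets of PRR73 (0.36, adjusted p = 0.212) and PRR37 (0.46, adjusted p = 0.1) were not called either. The median difference over the 6 clock genes, GI included, was 0.13. A difference in hour of harvest between groups was not tested. None of 14 tested flowering time genes was called, with 3 at an unadjusted p under 0.05. With the filter at the 60th percentile, quantile normalization, the 6 pho2 and gi arrays alone or all 18 arrays, 1 was called higher. The same count was reached without array 2 of WT.

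**Figure D1:**
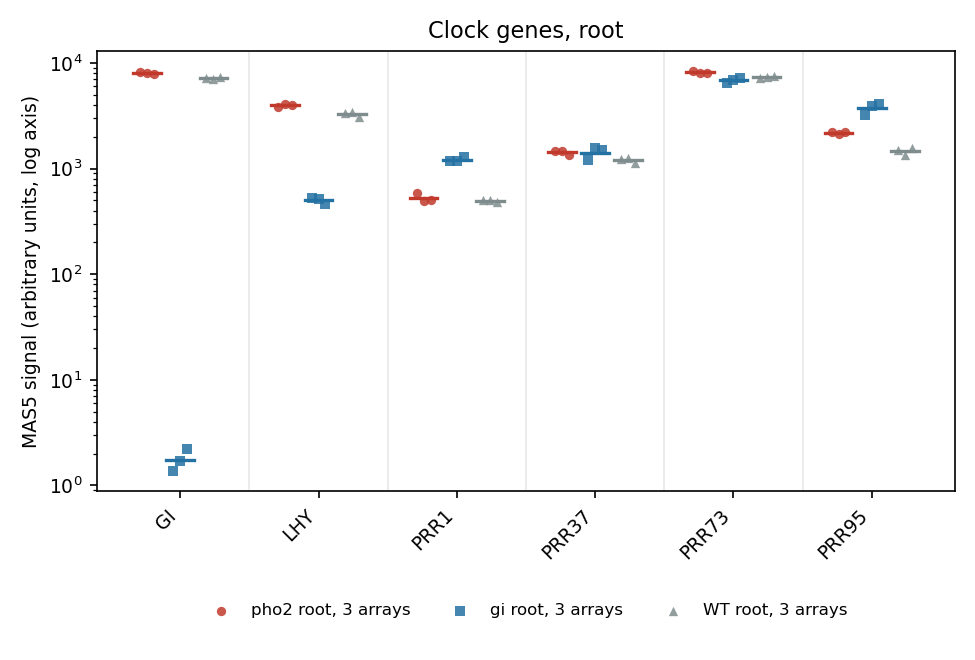
MAS5 signal (log axis) of the 6 tested clock genes on each root array, with pho2 as circles, gi as squares, WT as triangles and a bar at each group mean of 3 arrays. GI is low on the 3 gi arrays alone, LHY is low in gi, and PRR1 and PRR95 are high in gi.

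Of 5 tested PHT1 genes, 4 were higher in pho2 and 0 were lower. Their median difference was 0.81, against -0.0248 over all tested probe sets. Of 12 PHT1 genes in the tables, 9 had a probe set, and the other 4 of these did not pass the filter on low signal. PHT1;2, a Pi transporter of the root, read 11385, 12475 and 11521 in pho2 and 2588, 2202 and 1798 in gi, with 3259, 2349 and 2408 in WT. It was 5.37-fold higher in pho2, and the WT and gi arrays overlapped (difference 2.43, SE 0.144, adjusted p = 1.88e-05). PHT1;4 read 3540, 2885 and 2438 in pho2, 777, 1023 and 1048 in gi and 1508, 1214 and 1266 in WT. The pho2 arrays were the highest and the gi arrays the lowest of the 3 groups, without overlap (difference 1.62, SE 0.153, adjusted p = 0.000499).

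PHT1;1, a transporter that is active also when Pi is ample, read 5116, 4461 and 4361 in pho2 and 2473, 2810 and 2626 in gi (difference 0.81, SE 0.0776, adjusted p = 0.000501). Its WT arrays read 2337, 2218 and 2406, all below the gi arrays. A second, dim PHT1;1 probe set was not called (0.08, adjusted p = 0.879). PHT1;8 read 5521, 4305 and 4375 in pho2, 3172, 3136 and 2919 in gi and 4688, 3944 and 3457 in WT. The mutants did not overlap, but WT overlapped pho2 (difference 0.61, SE 0.12, adjusted p = 0.0159). The call for PHT1;8 ended without array 1 of pho2 (adjusted p = 0.0501), with no intensity trend (0.0547) and in the fit of all 18 arrays (0.22), and its other probe set was not called (0.47, adjusted p = 0.0635). PHT1;3 was dim, with 77.1, 175 and 121 in pho2 and 108, 66.2 and 94.9 in gi, and was not called (difference 0.37, SE 0.279, adjusted p = 0.469). The probe sets of PHT1;3, PHT1;4 and PHT1;8 are of a class whose probes may also match other transcripts (names ending in _x_at), so signal from a close family member cannot be told apart.

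Each mutant's fitted difference from the shared WT arrays is given beside the direct one. PHT1;2 differed from WT by 2.15 in pho2 (adjusted p = 3.67e-05) and by -0.28 in gi (adjusted p = 0.377). PHT1;1 differed by 0.99 in pho2 (adjusted p = 8.19e-05) and by 0.18 in gi (adjusted p = 0.283). For PHT1;4 the values were 1.13 (adjusted p = 0.00161) and -0.48 (adjusted p = 0.151). PHT1;8 was called against WT in neither mutant, with 0.23 in pho2 (adjusted p = 0.225) and -0.38 in gi (adjusted p = 0.152).

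**Figure D2:**
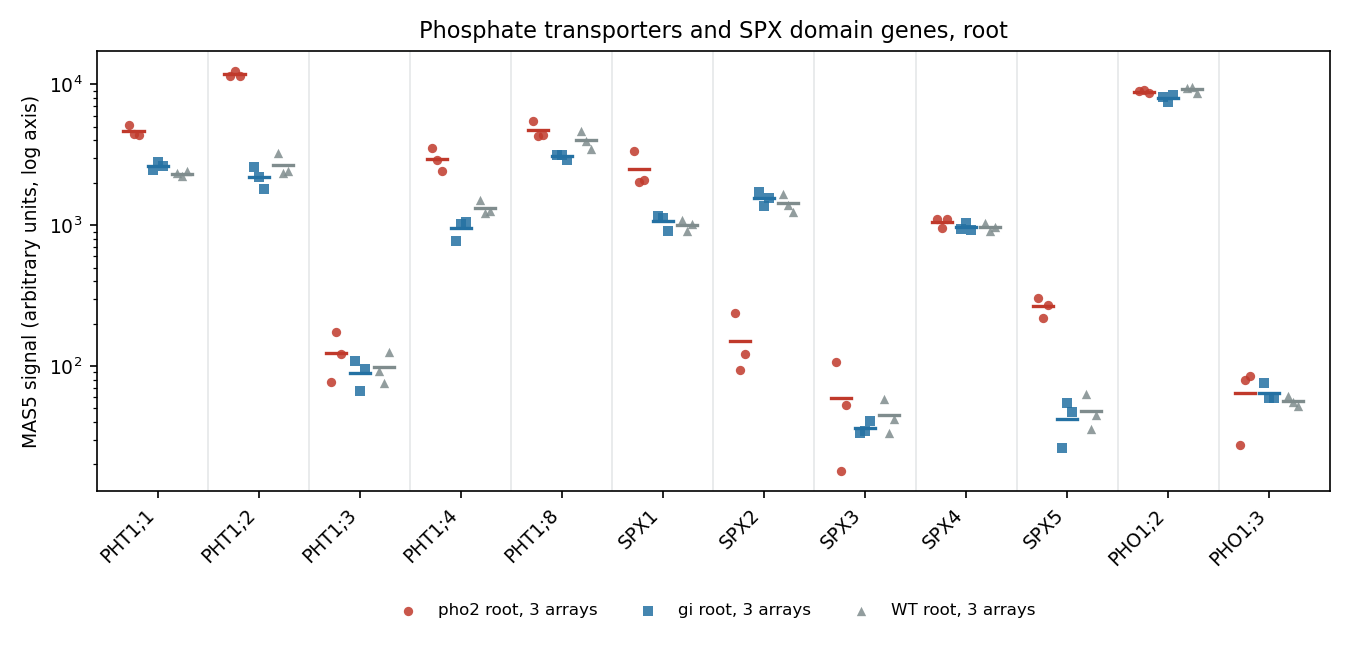
MAS5 signal (log axis) of the 5 tested PHT1 genes and 7 tested SPX domain genes on each root array, with pho2 as circles, gi as squares, WT as triangles and a bar at each group mean of 3 arrays. PHT1;2, PHT1;4, SPX1 and SPX5 are high in pho2, and SPX2 is low in pho2 alone.

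SPX domain genes differed in both directions: 2 of 7 tested were higher in pho2 and 1 was lower. SPX2 read 236, 93.2 and 122 in pho2, 1719, 1359 and 1571 in gi and 1659, 1387 and 1242 in WT. It was 10.3-fold lower in pho2, the lowest difference among called named genes, and gi and WT arrays overlapped (difference -3.32, SE 0.255, adjusted p = 0.000119). SPX1, whose protein binds PHR2 and restrains it when Pi is ample, read 3382, 2015 and 2084 in pho2 and 1165, 1126 and 912 in gi. The WT arrays read 1096, 907 and 1027, within the gi range or just below it (difference 1.18, SE 0.182, adjusted p = 0.00575). SPX5 read 338, 198 and 263 in pho2 and 33.3, 36.5 and 43.6 in gi, with 40.2, 23.4 and 37.1 in WT (difference 2.37, SE 0.227, adjusted p = 0.000501). A second SPX5 probe set, brighter over the root arrays and used in the counts, gave 2.29 (SE 0.242, adjusted p = 0.000879).

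The remaining SPX domain genes were not called. SPX4 had 1052 ± 84.4 in pho2 and 970 ± 58.7 in gi (adjusted p = 0.49). SPX3 was dim and varied within pho2 from 17.9 to 106 (adjusted p = 0.665). PHO1;2, the exporter that loads Pi into the xylem and a substrate of PHO2-dependent turnover in Arabidopsis, had 8875 ± 191 in pho2 and 8005 ± 454 in gi. Its arrays did not overlap but the difference was 0.15 and missed the threshold (SE 0.0575, adjusted p = 0.146). A second, dimmer PHO1;2 probe set went the other way and was not called either (-0.30, SE 0.0972, adjusted p = 0.0872). PHO1;3 had 64.3 ± 31.9 in pho2 and 64.6 ± 9.29 in gi (adjusted p = 0.891).

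Regulators upstream of these genes were called in 0 of 5 cases, with 2 at an unadjusted p under 0.05. PHR1 and PHR2, the transcription factors at the head of the Pi starvation response, differed by 0.04 (SE 0.0939, adjusted p = 0.829) and 0.18 (SE 0.0759, adjusted p = 0.179). PHR3 differed by 0.54 (SE 0.225, adjusted p = 0.178), with 1322 on array 1 of pho2 and 773 and 623 on the others. The SUMO ligases SIZ1 and SIZ2 differed by 0.12 (adjusted p = 0.376) and -0.01 (adjusted p = 0.971). Of 3 tested genes of the Pi starvation response, all galactolipid synthases, MGD3 was called. A further 16 symbols foreseen for this list, and 12 for the upstream regulators, had no match in the gene tables. Neither count is therefore a survey of the Pi starvation response. MGD3 read 2908, 2882 and 3118 in pho2 and 2428, 2393 and 1940 in gi (difference 0.40, SE 0.0902, adjusted p = 0.0267). Its call ended without array 1 (adjusted p = 0.0705), 2 (0.0592) or 3 (0.0734) of pho2. MGD1 differed by -0.09 (adjusted p = 0.423) and MGD2 by 0.70 (SE 0.33, adjusted p = 0.232).

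Of 15 tested nitrogen uptake and assimilation genes, 4 were lower and 1 was higher in pho2 (33.3% called, against 11.4% of named genes), with a median difference of -0.08. The ammonium transporter AMT1;2 read 1260, 2939 and 2238 in pho2, 6074, 5019 and 7683 in gi and 8504, 7746 and 7778 in WT. All pho2 arrays were below all gi arrays, and all gi arrays below all WT arrays (difference -1.60, SE 0.256, adjusted p = 0.00652). NRT2.2, a high-affinity nitrate transporter, read 501, 342 and 457 in pho2, 915, 926 and 1210 in gi and 1784, 1385 and 1416 in WT. It showed the same order of groups without overlap (difference -1.21, SE 0.161, adjusted p = 0.00305). Its probe set is of the class that may match close copies. Against WT, gi was not called for AMT1;2 (-0.38, adjusted p = 0.52) or NRT2.2 (-0.58, adjusted p = 0.107). In pho2 both were called against WT (-1.97, adjusted p = 0.00131, and -1.79, adjusted p = 0.000211).

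GLT2, a glutamate synthase, read 0.916, 3.16 and 43.8 in pho2, 94.7, 138 and 107 in gi and 334, 269 and 246 in WT. It again was lowest in pho2 and highest in WT (difference -2.25, SE 0.407, adjusted p = 0.0116). The size depends on the pseudocount, with -3.99 at 1 and -1.18 at 64. Against WT, GLT2 was called in pho2 (-3.47, adjusted p = 0.00085) but not in gi (-1.21, adjusted p = 0.175). AMT1;1, an ammonium transporter named after its value was seen to complete the count, read 2928, 3977 and 3866 in pho2, 5971, 4909 and 5867 in gi and 7054, 6240 and 6436 in WT. The order of the groups was the same, without overlap (difference -0.64, SE 0.119, adjusted p = 0.0126). GDH2, a glutamate dehydrogenase, was the gene that was higher in pho2, with 4309, 3636 and 3007 against 1996, 2395 and 1960 in gi and 2635, 2047 and 2522 in WT. The pho2 arrays did not overlap the others (difference 0.77, SE 0.14, adjusted p = 0.0117). The other 10 tested genes were not called, with differences down to -0.47 for the plastid glutamine synthetase GS2.

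**Figure D3:**
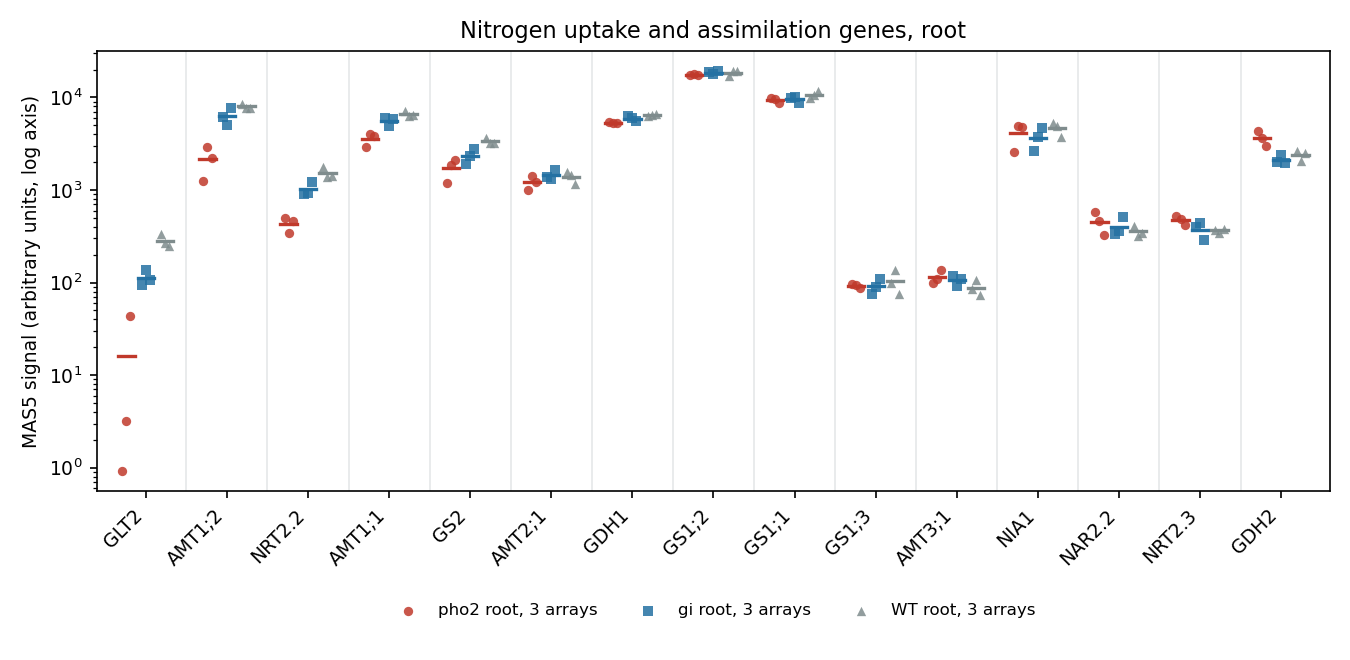
MAS5 signal (log axis) of the 15 tested nitrogen uptake and assimilation genes on each root array, ordered by the difference of pho2 less gi, with pho2 as circles, gi as squares, WT as triangles and a bar at each group mean of 3 arrays. At the left, GLT2, AMT1;2, NRT2.2 and AMT1;1 are lowest in pho2, and GDH2 at the right is highest in pho2.

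Beyond GI, LHY, PHT1;2, SPX5 and PHT1;4, the 12 highest named genes held a chitinase, a kinase of calcium signalling and a heat shock protein. Chib3H-a, a chitinase, read 539, 714 and 753 in pho2 and 242, 229 and 137 in gi, with 188, 157 and 220 in WT (difference 1.67, SE 0.214, adjusted p = 0.00233). CASPL1B1, a membrane protein related to the Casparian strip proteins, read 658, 814 and 807 in pho2, 225, 318 and 218 in gi and 514, 527 and 595 in WT. The WT lay between the mutants without overlap (difference 1.54, SE 0.148, adjusted p = 0.000505). MFT1, a relative of the florigen family, had 529 ± 160 in pho2 and 178 ± 7.8 in gi (difference 1.45, SE 0.212, adjusted p = 0.0045). The small heat shock gene hsp17.9 had 4030 ± 419 in pho2 and 1588 ± 414 in gi (difference 1.37, SE 0.177, adjusted p = 0.00248). KAO, an enzyme that makes gibberellin precursors and the 1 gene called of 10 in the gibberellin list (3 without array 3 of gi, 4 with array weights), had 188 ± 8.59 in pho2 and 68.2 ± 14.1 in gi (difference 1.29, SE 0.201, adjusted p = 0.0059). LOL4, a zinc finger protein of the LSD1-like family, had 1848 ± 573 in pho2 and 757 ± 101 in gi (difference 1.23, adjusted p = 0.00484). CIPK17, a kinase that acts with calcineurin B-like calcium sensors, had 1230 ± 225 in pho2 and 523 ± 107 in gi (difference 1.21, adjusted p = 0.00452).

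Among the 12 lowest named genes, BBD1, SAPK9, HAK4, catA and PRR1 were higher on every gi array than on any pho2 or WT array. BBD1, a nuclease-like protein, read 198, 139 and 169 in pho2, 1113, 1587 and 1734 in gi and 106, 123 and 111 in WT. It was 8.8-fold lower in pho2 (difference -3.01, SE 0.175, adjusted p = 1.66e-05), and its difference from WT was 3.50 in gi and 0.50 in pho2. SAPK9, a kinase of osmotic stress and abscisic acid signalling, read 444, 406 and 354 in pho2, 1714, 1855 and 2285 in gi and 296, 319 and 260 in WT (difference -2.23, SE 0.13, adjusted p = 1.66e-05). HAK4, a potassium transporter of the KUP family, had 108 ± 10.9 in pho2, 327 ± 126 in gi and 48.5 ± 30.3 in WT (difference -1.41, SE 0.335, adjusted p = 0.0334). Its call ended without array 1 (adjusted p = 0.103), 2 (0.0788) or 3 (0.0665) of pho2, or array 1 (0.111) or 2 (0.085) of gi. The catalase gene catA had 612 ± 116 in pho2, 1515 ± 20.9 in gi and 922 ± 204 in WT (difference -1.30, SE 0.167, adjusted p = 0.00233). Its other probe sets gave -1.20 (adjusted p = 0.00783) and -0.94 (adjusted p = 0.0106).

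In contrast, SPX2, LAC10, ILL8 and BC1 were lower in pho2 while the gi and WT arrays overlapped. LAC10, a laccase of the kind that polymerises lignin, read 779, 1191 and 1147 in pho2, 4268, 2563 and 1959 in gi and 2590, 3530 and 2524 in WT (difference -1.43, SE 0.263, adjusted p = 0.0124). ILL8, an auxin conjugate hydrolase, was dim, with 6.65 ± 2.77 in pho2, 49.2 ± 15.5 in gi and 59.6 ± 28.5 in WT (difference -1.51, SE 0.325, adjusted p = 0.0233). Its difference was -2.73 with a pseudocount of 1 and -0.67 with 64. The call for ILL8 ended without array 1 (adjusted p = 0.0657) or 3 (0.0643) of gi, or array 1 (0.0728) or 3 (0.0565) of pho2.

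**Figure D4:**
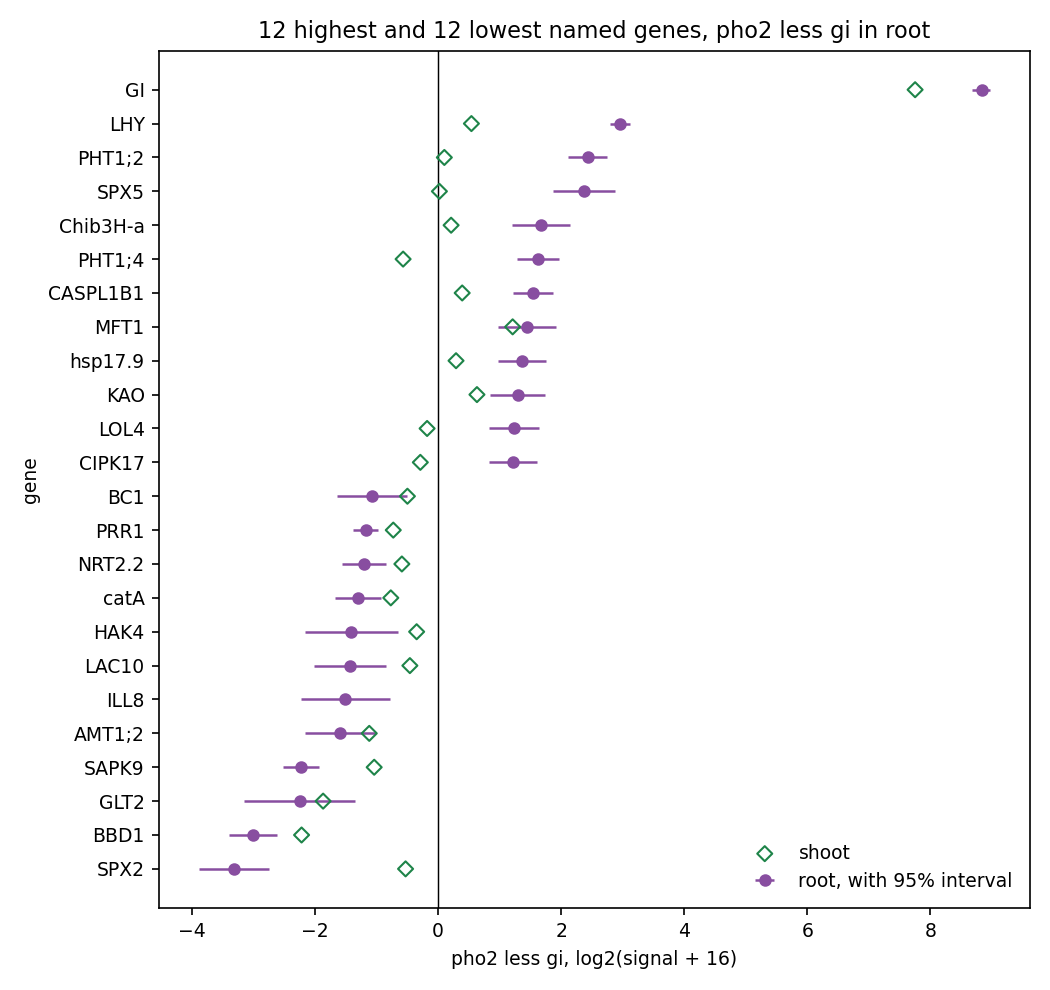
Difference of pho2 less gi on the log2(signal + 16) scale for the 12 highest and 12 lowest named genes in root (filled circles, bars are 95% intervals from the fit of 9 arrays), with the difference in shoot as open diamonds. GI is far to the right in both tissues, LHY, PHT1;2 and SPX5 are far from 0 in root alone, and ILL8 has no shoot value.

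Over all probe sets, 3 of the 4 at the ends of the range belong to genes with a locus number in place of a name. The probe set of gene ID 4339579 read 80.9, 11 and 199 in pho2, 11635, 10605 and 11851 in gi and 7284, 9716 and 8941 in WT (difference -7.11, SE 0.556, adjusted p = 0.000124). It was low in pho2 alone. That of gene ID 9268308 read 41.8, 160 and 113 in pho2, 5545, 5520 and 5905 in gi and 6.1, 7.83 and 11.3 in WT, and so was high in gi alone (difference -5.69, SE 0.321, adjusted p = 1.5e-05). That of gene ID 4331398 read 7184, 7982 and 7932 in pho2, 471, 143 and 165 in gi and 10.4, 14.9 and 12.9 in WT, and was high in pho2 (difference 5.0, SE 0.334, adjusted p = 4.69e-05). The remaining one is the GI probe set.

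Of 54 tested cell wall genes, 6 were lower in pho2 and 0 were higher, and the median difference was -0.18. The share called, 11.1%, was near the 11.4% of all named genes. CESA4, a cellulose synthase subunit of secondary walls, read 3198, 3042 and 3588 in pho2, 8231, 5139 and 4701 in gi and 5803, 4792 and 5703 in WT (difference -0.83, SE 0.178, adjusted p = 0.0224). The pho2 arrays were below all others, and array 1 of gi was the highest. BC1, a COBRA-like protein that shapes cellulose assembly, had 875 ± 99.6 in pho2 and 1916 ± 647 in gi (difference -1.07, SE 0.257, adjusted p = 0.0339). CESA9, another subunit of secondary walls, had 794 ± 92.9 in pho2, with 2247, 1284 and 1221 in gi (difference -0.93, adjusted p = 0.0238). CESA3, a subunit of primary walls, differed by -0.36 (adjusted p = 0.0114), the synthase-like gene CSLC9 by -0.67 (adjusted p = 0.00428) and the expansin EXPA10 by -0.44 (adjusted p = 0.0133). A second, dimmer CESA3 probe set gave -0.81 (adjusted p = 0.00452). CESA9 was named after its value was seen, to complete the count. The count of lower cell wall genes was 2 without array 1 of pho2, 3 without array 2 of pho2 and 12 without array 3 of gi. It was 3 with median centring, 2 with no intensity trend, 12 with array weights and 1 with all 18 arrays. BC1 missed the threshold without array 1 of gi (adjusted p = 0.0951) and without array 1 (0.107), 2 (0.0876) or 3 (0.0566) of pho2. CESA4 and CESA9 missed it without array 1 (0.0709 and 0.0818) or 2 (0.0711 and 0.0705) of pho2, and EXPA10 without array 1 of gi (0.0503) or of pho2 (0.0517). In the fit of all 18 arrays CESA3 (0.49) and CSLC9 (0.2) missed it too, and CESA3 also with median centring (0.122) and with no intensity trend (0.063).

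Of 24 tested ribosomal protein genes, 5 were lower in pho2 and 0 were higher (20.8% called, against 11.4% of named genes), and the median difference was -0.19. In 19 of the 24 the mutants' arrays did not overlap, against 36.3% of named genes. RPS10-1 had 1168 ± 111 in pho2, 1755 ± 104 in gi and 1711 ± 23.8 in WT (difference -0.58, SE 0.0809, adjusted p = 0.00363). RPL39C differed by -0.28 (adjusted p = 0.00603), RPL9 by -0.24 (adjusted p = 0.0128), RPL39B by -0.20 (adjusted p = 0.0269) and RPL27, named to complete the count, by -0.82 (adjusted p = 0.0338). The number called was 2 with median centring, 1 with no intensity trend and 10 with the filter at the 60th percentile. It was 2 without array 1 of pho2, 3 without array 2 or array 3 of gi and 8 without array 2 of WT. The call of RPL9 ended without array 1 of pho2 (0.0514), and that of RPL39B without any of the pho2 or gi arrays (up to 0.0974, array 1 of pho2). RPL39C missed the threshold with median centring (0.123) and with no intensity trend (0.0617).

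Metal transport and cytokinin genes had shares called of 13.3% and 14.8%, near the 11.4% of named genes. In metal transport 4 of 30 tested were higher and 0 lower (median 0.08), led by the copper pump HMA5 with 3090 ± 144 in pho2 and 2218 ± 140 in gi (difference 0.48, SE 0.0697, adjusted p = 0.00451). The copper pump HMA4, the copper transporter COPT1 and NRAMP6 differed by 0.40 (adjusted p = 0.0195), 0.26 (adjusted p = 0.0237) and 0.31 (adjusted p = 0.0376). In the cytokinin list 4 of 27 were higher and 0 lower (median 0.16). CKX11, an enzyme that degrades cytokinin, had 3828 ± 427 in pho2, 2248 ± 63.3 in gi and 2027 ± 125 in WT (difference 0.76, SE 0.0841, adjusted p = 0.00118). A second, dim CKX11 probe set was not called (0.22, adjusted p = 0.687). LOGL5, an enzyme of the family that activates cytokinin, differed by 0.60 (adjusted p = 0.0265). The response regulators RR24 and RR9 differed by 0.30 (adjusted p = 0.0374) and 0.40 (adjusted p = 0.0455). Leaving out any 1 array of pho2 or gi lowered each of these counts from 4 to 1 or 2, as did leaving out any 1 WT array for cytokinin (2), and HMA5 and CKX11 kept their calls in each case, though HMA5 was not called in the fit of all 18 arrays (0.248). Without array 2 of pho2, 1 metal transport gene was called lower.

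Other lists had few calls or calls in both directions, to be read against the 11.4% called of named genes. The shares were 15% for abscisic acid, 22.7% for potassium, 15.8% for starch and sucrose and 9.38% for auxin. Abscisic acid and osmotic stress genes had 8 higher and 4 lower of 80, with NAC45 at 0.77 (SE 0.113, adjusted p = 0.00452) and SAPK9 at the lower end. The phosphatases PP2C10 and PP2C44 of that list both differed by 0.39 (adjusted p = 0.00991 and 0.0107). Potassium transporters had 3 higher and 2 lower of 22, with HAK7 at 0.49 (adjusted p = 0.0133), HAK12 at 0.51 (adjusted p = 0.0253) and HAK9 at 0.41 (adjusted p = 0.0287). The lower ones were HAK4 and HAK5, the latter at -0.28 (adjusted p = 0.0415) and named after its value was seen. A second, dimmer HAK7 probe set was not called (0.19, adjusted p = 0.419). Starch and sucrose genes had 3 higher and 3 lower of 38, with the trehalose phosphatases TPP3 at -1.06 (adjusted p = 0.00941) and TPP4 at -0.74 (adjusted p = 0.00446), the sucrose synthase SUS1 at -0.27 (adjusted p = 0.0194) and the cell wall invertase CIN4 at 0.54 (adjusted p = 0.0171). A second, dimmer SUS1 probe set gave -0.54 (adjusted p = 0.00107). Auxin genes had 3 higher and 3 lower of 64, with ARF1 at 0.38 (adjusted p = 0.0125), IAA5 at 0.23 (adjusted p = 0.026) and GH3.1 at -0.83 (adjusted p = 0.0287). The fit of all 18 arrays ended the calls of TPP3 (0.168), TPP4 (0.139) and ARF1 (0.173), no intensity trend that of ARF1 (0.0542), and median centring those of PP2C10 (0.0533) and PP2C44 (0.0558). Leaving out 1 array ended the calls of HAK7 (0.0501, array 1 of gi), HAK12 (0.0907, array 1 of pho2), HAK9 (0.0883, array 1 of gi), HAK5 (0.124, array 2 of pho2), SUS1 (0.0726, array 1 of gi), CIN4 (0.0578, array 1 of gi), IAA5 (0.0872, array 1 of pho2) and GH3.1 (0.1, array 2 of gi), given with the highest adjusted p reached and its array. Without array 1 of pho2 the higher genes numbered 3 for abscisic acid, 1 for potassium, 0 for starch and sucrose and 1 for auxin, and the lower ones 1, 0 and 0 for abscisic acid, potassium and auxin. Without array 1 or array 2 of gi, or array 2 of pho2, the higher abscisic acid genes numbered 3, and the higher potassium and starch genes 0 or 1. The higher starch genes numbered 1 also without any 1 WT array or array 3 of pho2, and the lower abscisic acid genes 2 without array 1 or 3 of WT or any 1 gi array. The higher auxin genes numbered 1 without array 2 of gi or array 2 of pho2, and the lower ones 0 or 1 without any 1 array of either mutant. Without array 3 of pho2 the higher and lower abscisic acid genes numbered 5 and 1, and the lower potassium genes numbered 0 or 1 without any 1 array of either mutant or array 2 of WT.

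Water channels split, with 1 higher and 1 lower of 22. TIP1;2, a tonoplast aquaporin, read 2166, 3423 and 3100 in pho2, 1449, 972 and 1376 in gi and 3971, 3139 and 3799 in WT, so that gi was below both others (difference 1.18, SE 0.187, adjusted p = 0.00637). TIP4;1 had 2704 ± 195 in pho2, 4433 ± 670 in gi and 2478 ± 63.7 in WT, with gi above both others (difference -0.70, SE 0.0992, adjusted p = 0.00395). Heat shock genes had 3 higher and 2 lower of 40, with HSP24.1 at 0.56 (adjusted p = 0.00901), HSF12 at 0.41 (adjusted p = 0.0188) and HSP23.2 at -0.56 (adjusted p = 0.0213). HSF11, at -0.51 (adjusted p = 0.0465), was named after its value was seen. Cell cycle genes had 3 higher and 1 lower of 38, which were the kinase inhibitor EL2 at 0.45 (adjusted p = 0.00945), CYCD5-2 at 0.44 (adjusted p = 0.0143), KRP6 at 0.52 (adjusted p = 0.0467) and CDKF-4 at -0.29 (adjusted p = 0.0304). Dimmer probe sets of EL2 (0.26, adjusted p = 0.258), CYCD5-2 (0.20, adjusted p = 0.433) and CDKF-4 (-0.46, adjusted p = 0.0883) were not called. The call of HSP24.1 ended in the fit of all 18 arrays (0.16). Leaving out 1 array ended the calls of HSF12 (0.07, array 1 of pho2), HSP23.2 (0.0709, array 1 of pho2), HSF11 (0.143, array 1 of pho2), CYCD5-2 (0.0575, array 1 of pho2), KRP6 (0.148, array 1 of pho2) and CDKF-4 (0.104, array 1 of either mutant), given in the same way. KRP6 and HSF11 missed the threshold also without any 1 WT array. The higher cell cycle genes numbered 1 without array 2 of gi or array 1 of pho2. The lower heat shock genes numbered 0 without array 3 of gi or array 2 of pho2, and 1 without any other root array.

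Single calls came from the lipoxygenase LOX3 (1 of 34 jasmonate genes, 0.70, adjusted p = 0.00652), the dehydrin Dhn1 (1 of 6, -0.55, adjusted p = 0.0132) and PDIL2-1 (1 of 19 genes of protein folding in the endoplasmic reticulum, -0.30, adjusted p = 0.0216). Dimmer Dhn1 probe sets were not called (-0.19, adjusted p = 0.581, and -0.24, adjusted p = 0.384). A second PDIL2-1 probe set was called (-0.39, adjusted p = 0.0458). Of 11 defence genes, Chib3H-a was higher and CH16 was lower (-0.71, adjusted p = 0.0129). Of 16 ethylene genes, ACS2, an enzyme of ethylene synthesis, was lower (-0.55, adjusted p = 0.0191) and the transcription factor DREB1A was higher (0.73, adjusted p = 0.0489). Without 1 array the calls ended for PDIL2-1 (0.0747, array 1 of gi), ACS2 (0.0616, array 2 of pho2) and DREB1A (0.147, array 1 of gi). In the fit of all 18 arrays those of LOX3 (0.398), CH16 (0.274) and Dhn1 (0.341) ended, and that of Dhn1 also with median centring (0.0731) and with no intensity trend (0.0519). Without array 3 of gi 2 jasmonate genes were called higher, and without array 2 of gi 2 genes of the dehydrin list and 2 of protein folding were called lower. Lists with 0 calls were iron acquisition (14 tested, 2 at an unadjusted p under 0.05), diterpenoid phytoalexins (13, 2), WRKY factors (6, 3), class III peroxidases (2, 0), and histones and replication (28, 0). With array weights or without array 3 of gi, 1 iron acquisition gene and 1 WRKY factor were called higher. Without array 3 of pho2, 1 WRKY factor was called higher too. The phytoalexin genes had a median difference of -0.42 and a wide spread between arrays, with a summed signal of 12013, 5604 and 7712 in gi and 5593, 5125 and 6857 in pho2.

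**Figure D5:**
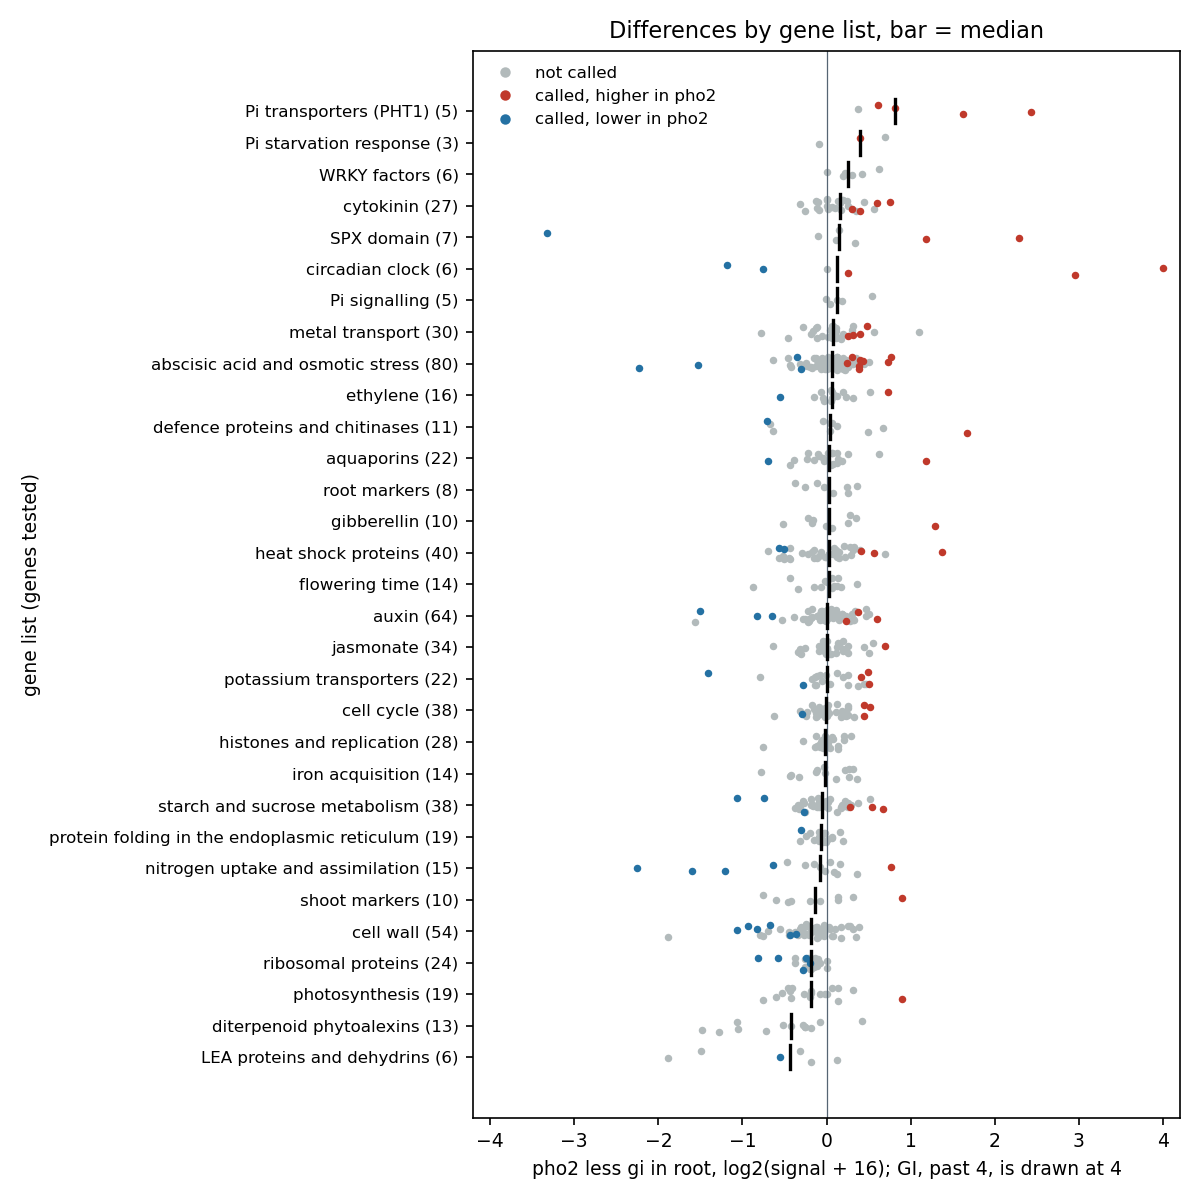
Difference of pho2 less gi in root, on the log2(signal + 16) scale, for each tested gene of 31 gene lists ordered by their median (black bar), with the number tested in brackets. Genes called higher in pho2 and called lower are coloured, genes not called are grey, and the PHT1 list is at the top with a median of 0.81.

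Arrays of shoots from the same genotypes, which are other arrays than those of the root, were used to see whether the root differences are found in shoot. In shoot, 23.4% of probe sets were called for pho2 less gi in a fit of all 18 arrays. The difference between the tissues was called in 5718 probe sets (16.6%). Over 34355 probe sets the root and shoot differences correlated at r = 0.0842, a description across probe sets that are not independent. Root and shoot arrays also differed in the signal of the spiked control BioB, which lay between 15.5 and 42.4 on root arrays and between 592 and 1024 on shoot arrays, and its part in these differences was not tested.

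The 12 lowest named genes in root were lower in pho2 also in shoot in 11 of 11 tested cases, of which 6 were called. Of the 12 highest, 9 were higher in pho2 in shoot and 4 of these were called, while 1, PHT1;4, was called lower. GI is among the 9 and the 4, and its difference was fixed by the knockout. Of all probe sets 23.4% were called in shoot, in either direction. The share of all probe sets with the same direction in both tissues was not counted. GLT2 differed by -1.87 in shoot (adjusted p = 0.000609), AMT1;2 by -1.12 (adjusted p = 0.00143) and MFT1 by 1.21 (adjusted p = 0.0018), and for these the tissues' difference was not called (adjusted p = 0.658, 0.349 and 0.71). For some Pi genes the tissues parted. For PHT1;3, PHT1;8, SPX4, PHO1;2 and PHO1;3 the tissues' difference was not called (adjusted p = 0.608, 0.873, 0.638, 0.694 and 0.336). PHT1;2 had 61.1 ± 28.3 in pho2 shoots and 53.2 ± 6.49 in gi shoots, and the root difference exceeded the shoot difference by 2.33 (SE 0.282, adjusted p = 4.45e-05). PHT1;4 was lower in pho2 than in gi in shoot, with 383 ± 67.7 and 577 ± 102, so that root less shoot was 2.19 (SE 0.227, adjusted p = 1.14e-05). SPX2 had 782 ± 91.8 in pho2 shoots and 1134 ± 59.6 in gi shoots, a shoot difference of -0.53 (adjusted p = 0.0766), and root less shoot was -2.79 (SE 0.294, adjusted p = 1.31e-05).

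GI, LHY, PRR1 and PRR95 had the same direction in shoot as in root. LHY had 8518 ± 426 in pho2 shoots and 5849 ± 194 in gi shoots, a difference of 0.54 (adjusted p = 1.59e-05), and root less shoot was 2.41 (SE 0.0911, adjusted p = 1.91e-10). PRR95 had 12282 ± 937 and 24630 ± 876, a difference of -1.01 (adjusted p = 5.62e-07), and the tissues' difference was not called (0.25, SE 0.121, adjusted p = 0.185). PRR73 differed by -0.18 in shoot (adjusted p = 0.0851), with root less shoot at 0.43 (SE 0.0996, adjusted p = 0.00714).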

How the data were processed

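The deposited intensity values, 1 per probe set and array on a linear scale, were used as the authors gave them; the submitters' processing notes name MAS5 with no version. RNA was prepared with a Qiagen kit and labelled as biotinylated cRNA for Affymetrix rice arrays, per the labels' protocols. The trimmed mean of every array was 500 when tested on the values. Of 57381 probe sets, 123 Affymetrix controls and those with a mean under the 40th percentile of the root arrays were left out. No columns were identical and 0 were left unused. Detection calls were not used here, and precision is limited by how many arrays a group has.

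Values were taken as log2(value + 16). The 9 root arrays were fitted with 3 group means in limma 3.58.1 (R 4.3.3, lmFit and eBayes with an intensity trend), two-sided, with Benjamini-Hochberg adjustment. Root less shoot came from 18 arrays fitted with 6 means. The test was checked on simulated data. Probe sets were named through the platform annotation and a RefSeq gene table: 22436 had 1 gene, 95 with several stayed unnamed, and 2457 genes had a name other than a locus number. The gene's brightest probe set stands for it in list counts. Of the symbols foreseen for the lists, 90 had no match and 3 were ambiguous. Those without a match included 16 of the Pi starvation response, 12 of Pi signalling, 12 of flowering time and 10 of the clock.

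The text names GI; the 12 highest and 12 lowest called named genes without overlap between the mutants; up to 4 called genes of each list with the smallest p, and all tested genes of the PHT1, SPX domain, Pi signalling, Pi starvation and clock lists; and the 2 highest and 2 lowest called probe sets overall. The comparison, the genes and the lists were chosen with earlier results of these data known. Same-numbered arrays of pho2 and gi had deviations from their group means that correlated at 0.11, 0.016 and 0.065. Arrays with unlike numbers correlated at -0.11 to 0.054. The numbers were not taken as pairs, though a weak pairing cannot be told from these values. Alternatives were other pseudocounts, filters, scalings, array weights, no trend, other sets of arrays, the replicate block and leaving out each array.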

Additional observations from a re-analysis of the deposited data

Results flagged for a closer look

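The difference of pho2 less gi was not the same in root and shoot for 17 of 34 gene results tested for it (limma, fit of 18 arrays, adjusted p under 0.05). The values below are root less shoot on the log2(signal + 16) scale, and no reason for them was tested. Most of the genes tested are among the 12 highest and 12 lowest in root, chosen for the size of their root difference, so the count of 17 is a description only.

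Among Pi genes they were 2.33 for PHT1;2, 2.19 for PHT1;4, 0.68 for PHT1;1, 1.48 for SPX1, -2.79 for SPX2, and 2.35 and 3.43 for the probe sets of SPX5. Except for PHT1;1 and the first SPX5 value, these calls held under each alternative run. That of PHT1;1 ended in 3 of 21 alternatives, with adjusted p up to 0.0733, among them leaving out array 1 of gi root (0.0522) or of pho2 root (0.0554). That of the first SPX5 probe set ended with a pseudocount of 1 (0.109). Both SPX5 values rest on shoot signals near the pseudocount. Shoot means were 15.1 in pho2 and 17.6 in gi for the first probe set, and 8.51 and 35.5 for the second. The second value ran from 2.09 to 5.19 over the alternatives, so the size of neither is read as a difference between tissues.

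Among clock genes they were 2.41 for LHY, 0.43 for PRR73, 1.08 for GI and -0.44 for PRR1. The value for GI rests on gi signals at or near the pseudocount (1.75 ± 0.413 in root and 21.6 ± 20.5 in shoot, n = 3), ran from 0.49 to 2.74 over the alternatives, and is not read as a difference between tissues. LHY and PRR73 kept their calls under each alternative run. GI lost its call in 9 of 21 alternatives (adjusted p up to 0.0685) and PRR1 in 8 (up to 0.151), 7 of them for each gene being the omission of 1 array. These were arrays 1 and 2 of gi root, 1, 2 and 3 of pho2 root and 1 and 3 of pho2 shoot for GI (highest without array 1 of pho2 shoot). For PRR1 they were array 3 of gi root, 2 and 3 of pho2 root, 2 and 3 of gi shoot and 1 and 3 of pho2 shoot.

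Of the other genes, LOL4 (1.41), CIPK17 (1.5) and SAPK9 (-1.20) kept their calls throughout. The values of CASPL1B1 (1.15), hsp17.9 (1.08) and BBD1 (-0.79) had adjusted p of 0.0457, 0.0243 and 0.0452, and leaving out 1 array ended the call in 9, 5 and 8 cases. In root these were arrays 1 and 3 of gi and 1, 2 and 3 of pho2 for CASPL1B1, array 1 of either mutant for hsp17.9 (up to 0.0662), and arrays 2 and 3 of either mutant for BBD1 (up to 0.114). In shoot they were arrays 1 and 2 of gi and 2 and 3 of pho2 for CASPL1B1, 3 of gi and 2 and 3 of pho2 for hsp17.9, and 1 and 2 of gi and 1 and 3 of pho2 for BBD1.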

How the results depend on the processing

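Of 80 called genes and probe sets named by the rule, 36 kept their call under each alternative in which they were tested, among them 21 of the 24 highest and lowest; HAK4, BC1 and ILL8 did not. No called gene had another sign in root under an alternative. The 13 results that were not called stayed so, and 5 of them, PHO1;3 (-0.31 to 0.30), SPX3 (-0.11 to 0.82), PHR1 (-0.02 to 0.12), SIZ2 (-0.06 to 0.08) and PRR37 (-0.09 to 0.08), took either sign. The calls in root numbered 2609, against 1415 with median centring, 1206 with no intensity trend, 1670 with all 18 arrays and 1079 to 2310 when 1 array was left out. Probe sets higher in pho2 numbered 1352, against 687 with no intensity trend, 850 with all 18 arrays and 604 to 1235 with 1 array left out. Those lower numbered 1257, against 796 with no filter, 487 with median centring, 519 with no intensity trend, 815 with the 6 pho2 and gi arrays alone, 820 with all 18 arrays and 475 to 1077 with 1 array left out. Root less shoot gave 5718 calls, 3450 with median centring and 4486 to 6166 with 1 array left out. The causes were not tested. With the replicate block the root comparison gave 2018 calls, of which 1863 were shared with the 2609. The labels do not say whether the replicate numbers pair the arrays. Of the 24 highest and lowest genes the block ended the call of HAK4 (adjusted p = 0.052). Genes near background have sizes set largely by the pseudocount, as for GI, GLT2 and ILL8, and with 3 arrays a group a missed threshold does not show equal levels.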

Other observations

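Gene families outside the lists, formed by the stem of the gene name and chosen after their values were seen, gave further differences in root. Of 18 tested CIPK genes, kinases that act with calcineurin B-like calcium sensors, 5 were higher in pho2 than in gi and 1 was lower, against 11.4% called of all 2263 tested named genes. The median difference of the CIPK genes was -0.05. They were picked as the family with the most genes called higher among 46 with 8 or more tested, so the count is a description only. CIPK23, which activates the potassium channel AKT1 and acts on nitrate transport in Arabidopsis, had 7195 ± 103 in pho2, 4574 ± 651 in gi and 6688 ± 522 in WT (n = 3, difference 0.66, adjusted p = 0.00408). CIPK1 had 4336 ± 163 in pho2, 2833 ± 269 in gi and 3593 ± 307 in WT (difference 0.62, adjusted p = 0.00365). Both kept their call under each alternative run, as did CIPK17. CIPK10 (0.68, adjusted p = 0.0207), CIPK21 (0.38, adjusted p = 0.0262) and CIPK11 (-0.55, adjusted p = 0.0389) lost theirs when array 1 of gi was left out (adjusted p = 0.0566, 0.0864 and 0.126), among other omissions.

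NIGT1, a nitrate-inducible repressor that links nitrate and Pi responses, had 676 ± 74.2 in pho2, 305 ± 21.3 in gi and 358 ± 14.5 in WT (difference 1.11, SE 0.104, adjusted p = 0.000485). YSL13, a member of the metal-nicotianamine transporter family, had 1428 ± 292 in pho2, 639 ± 60.3 in gi and 486 ± 81.7 in WT (difference 1.12, SE 0.162, adjusted p = 0.00433). MADS27, a transcription factor that responds to nitrate in rice roots, had 1741 ± 119 in pho2, 1185 ± 99.3 in gi and 1763 ± 93.6 in WT, so that gi was below both others (difference 0.55, SE 0.0853, adjusted p = 0.00583). These 3 kept their call under each alternative run. Of 10 tested MADS genes, MADS25 (0.77, adjusted p = 0.0481) and MADS26 (0.40, adjusted p = 0.0371) were the others called. Of 9 tested AGO genes, the Argonautes AGO2 (0.37, adjusted p = 0.0261), AGO18 (0.49, adjusted p = 0.031) and AGO1D (0.56, adjusted p = 0.0351) were higher. The calls of these MADS and AGO genes ended when array 2 of pho2 was left out (adjusted p between 0.0776 and 0.125). The shares called were 30% of MADS, 33.3% of AGO and 20% of 10 YSL genes, against 11.4% of named genes. These families too were picked among the 46 after their counts were seen, so the counts are a description only.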
